A study of Mus musculus with 8 samples.

Results

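Pyruvate made by glycolysis is oxidized in mitochondria only after it has been carried across the inner membrane and converted to acetyl-CoA. The 10 genes described here encode the proteins of that entry: the 4 pyruvate dehydrogenase kinases (Pdk1, Pdk2, Pdk3 and Pdk4), the 2 pyruvate dehydrogenase phosphatases (Pdp1 and Pdp2), 2 subunits of the pyruvate dehydrogenase complex (Pdha1 and Dlat) and the 2 subunits of the mitochondrial pyruvate carrier (Mpc1 and Mpc2). They were chosen by gene symbol and not by a measured value, though with earlier results of these data known. Each symbol matched 1 of the 47706 entries of the count table, and all 10 passed the filter on low counts that left 16736 entries for testing.

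RNA was sequenced from primary osteoblasts, the bone-forming cells, isolated from the calvaria (skullcap) of newborn mice. After 7 days of differentiation, 4 samples were treated with parathyroid hormone (PTH) and 4 with vehicle for 24 hours. All 8 samples shared every other stated condition: the sample labels call the 7 days adipogenic differentiation, whereas the study's methods describe an osteogenic medium with β-glycerol phosphate and ascorbic acid and a period of serum starvation before treatment. Strain, genotype and the meaning of the prefix Con in the sample names are not given for these cultures in the sources used here, and nothing says whether the 4 samples of a group came from separate animals or isolations. The p-values below therefore measure the spread between samples, which may be technical. Total counts were 41618108 to 46757836 in the vehicle samples and 33605610 to 56090654 in the PTH samples, with the smallest library being PTH 2 and the deepest PTH 1. Tnfsf11, which encodes RANKL and is a known target of PTH in osteoblasts, was at 1.42 ± 0.365 CPM with vehicle and at 128 ± 20.0 CPM with PTH (mean ± SD, n = 4), and every PTH sample lay above every vehicle sample. CPM are read counts scaled by library size to a common total.

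Pyruvate dehydrogenase is a very large complex of repeated subunits. Its decarboxylase contains the α subunit PDHA1, and its core is built of the acetyltransferase DLAT, to which the kinases and phosphatases bind. The kinases phosphorylate PDHA1 and switch the complex off, the phosphatases remove the phosphate and switch it on, and the carrier, which needs both MPC1 and MPC2, brings pyruvate into the matrix. PDK4 is known as the kinase of fasting and fat oxidation and PDK1 as a target of hypoxia-inducible factor. Differentiating osteoblasts are known for a high use of glucose with release of lactate. Transcript levels do not measure phosphorylation, complex activity or flux.

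The sequences before the starts of the 4 kinase genes are shown because these genes do the same job and yet differed in their response: Pdk2, Pdk4 and Pdk1 fell with PTH and Pdk3 did not pass the test. They are RefSeq sequences on GRCm38.p6, read 5′ to 3′ on the strand of the gene and ending at the annotated start or, where the gene model of GENCODE M21 reaches further upstream, where that model begins. They cover chr2:71872974-71873223 on the plus strand for Pdk1, and on the minus strand chr11:95041372-95041621 for Pdk2, chrX:93832202-93832400 for Pdk3 and chr6:5496310-5496528 for Pdk4. Capitals mark matches to the 5 motifs searched, and the only whole match within these stretches is CACGTG in Pdk2. Pdk1 and Pdk2 each have a further RefSeq start, and the sequence before it lies inside the gene and is not shown.
Pdk1: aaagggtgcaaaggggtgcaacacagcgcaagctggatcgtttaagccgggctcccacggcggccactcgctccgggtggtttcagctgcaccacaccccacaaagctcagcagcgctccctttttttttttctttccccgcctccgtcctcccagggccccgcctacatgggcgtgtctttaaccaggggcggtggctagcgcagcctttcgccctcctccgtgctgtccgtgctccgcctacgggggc
Pdk2: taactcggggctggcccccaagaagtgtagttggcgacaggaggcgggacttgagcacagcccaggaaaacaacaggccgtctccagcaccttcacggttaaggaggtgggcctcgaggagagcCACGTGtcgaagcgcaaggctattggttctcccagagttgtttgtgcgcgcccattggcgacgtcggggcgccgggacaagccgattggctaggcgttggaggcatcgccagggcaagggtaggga
Pdk3: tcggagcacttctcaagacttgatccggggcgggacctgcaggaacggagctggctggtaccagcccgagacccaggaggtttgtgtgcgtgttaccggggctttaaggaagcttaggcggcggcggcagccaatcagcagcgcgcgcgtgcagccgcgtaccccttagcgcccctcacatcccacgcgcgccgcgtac
Pdk4: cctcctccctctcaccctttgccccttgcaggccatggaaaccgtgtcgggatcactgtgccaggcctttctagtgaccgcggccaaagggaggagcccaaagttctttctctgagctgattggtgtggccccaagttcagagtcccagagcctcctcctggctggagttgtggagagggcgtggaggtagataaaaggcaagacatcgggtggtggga

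The motifs were looked for on both strands in windows of 300 bases, from 250 before to 50 after each RefSeq start. Of the 10 genes, 9 had a window, and these 9 had 12 windows together, since Pdk1, Pdk2 and Mpc1 had a further one each. The counts below are of genes, whereas the percentages are of single windows, so they are not in the same unit. The cyclic AMP response element TGACGTCA, known from genes that PTH switches on through cyclic AMP, lay in no window of the 9 genes and in 1.79% of all 32851 windows. Its shorter form TGACG lay in the windows of 4 genes (Pdk2, Pdp2, Pdha1 and Dlat) and in 20.8% of all windows. The hypoxia-inducible factor core ACGTG lay in the windows of 3 genes (Pdk2, Pdk3 and Pdp2) and in 19.6% of all windows. In Pdk2 its matches on both strands overlap at position -126 and form CACGTG. In Pdp2 they form CACGTG at position -219 as well, and there overlap a match to TGACG. In Pdk3 the core starts at position -53, so that the sequence shown ends with its first 2 bases, left in lower case. The forkhead motif GTAAACA and the nuclear receptor motif AAGGTCA, in 3.65% and 4.72% of all windows, lay in none of the 9 genes. A match is a description of the letters and not evidence of binding.

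PTH changed the genes of this step in both directions: Dlat, Mpc1 and Mpc2 were upregulated, Pdk1, Pdk2, Pdk4 and Pdp1 were downregulated, and Pdk3, Pdp2 and Pdha1 did not pass the test. The test was edgeR's quasi-likelihood test at a Benjamini-Hochberg adjusted p under 0.05. That is 3 of 10 genes higher, against 23.3% of the 16736 genes tested, and 4 of 10 lower, against 22.5%. The median log2 fold change over the 10 genes was -0.09, and over all genes tested it was -8.1e-04. The CPM of the PTH and vehicle samples did not overlap for 6 of the 10 genes, against 43.0% of all genes tested. A large share of all genes was called in this comparison, so the counts over 10 genes are read against it, and the values are given gene by gene.

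**Figure D1:**
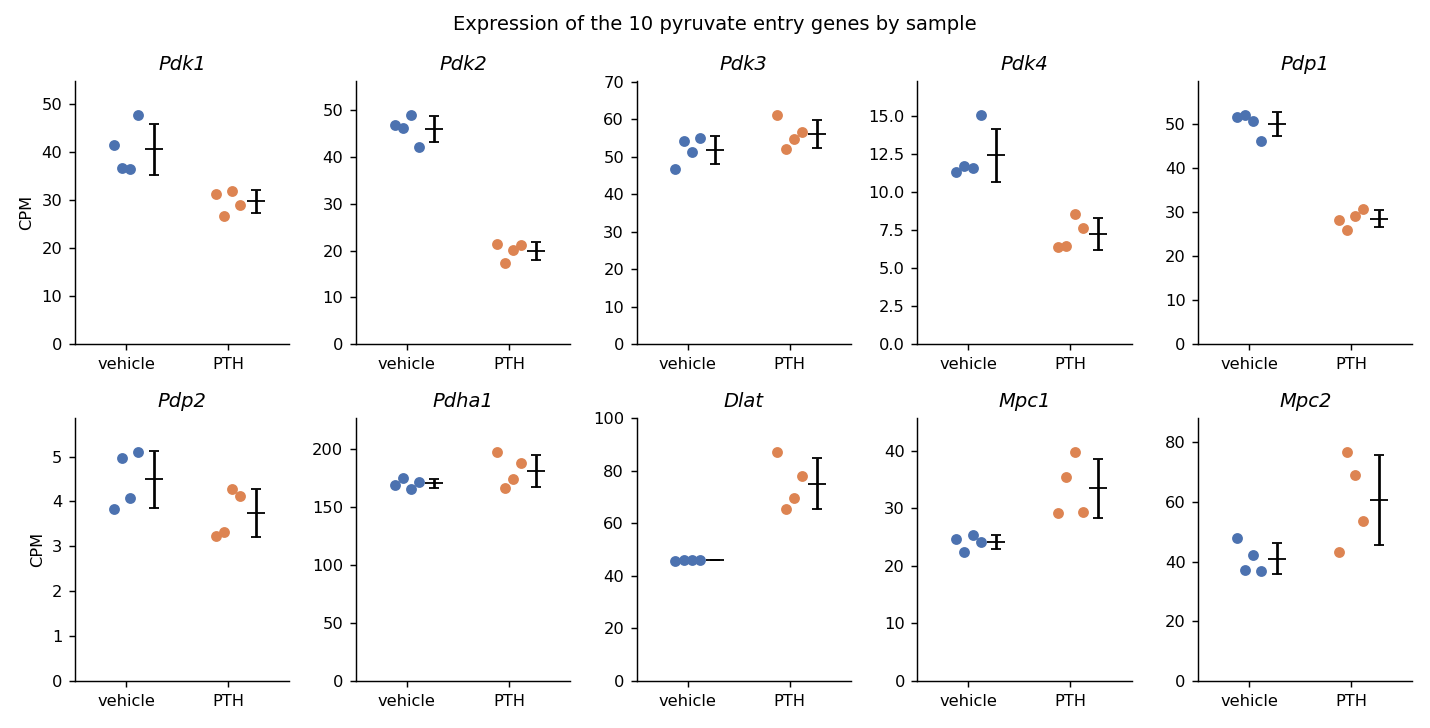
Level of each of the 10 genes in each sample, in CPM, with 4 vehicle and 4 PTH samples as points and the mean ± SD of each group. The groups stand apart for Pdk1, Pdk2, Pdk4 and Pdp1 (PTH lower) and for Dlat and Mpc1 (PTH higher), and for Mpc2 PTH 1 lies below vehicle 1.

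Pdk2 (chr11:95026258-95041354, minus strand, GRCm38), the kinase found in most tissues, changed more than any other of the 10 genes. Its level was 46.9, 46.1, 48.9 and 42.2 CPM in vehicle samples 1 to 4 and 21.4, 17.2, 20.0 and 21.3 CPM in PTH samples 1 to 4. The highest PTH sample lay far below the lowest vehicle sample. Pdk2 was 2.30-fold lower with PTH, a log2 fold change of -1.20 (95% interval -1.39 to -1.02, edgeR adjusted p = 2.50e-07). An exact permutation test gave p = 0.0286, the smallest that 4 against 4 samples allow.

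Pdk4 (chr6:5483351-5496309, minus strand), the kinase induced by fasting and fatty acids, was the least abundant kinase per length of transcript. It stood at 11.3, 11.7, 11.6 and 15.04 CPM in vehicle samples 1 to 4 and at 6.36, 6.44, 8.59 and 7.65 CPM in PTH samples 1 to 4. The groups did not overlap, and vehicle 4 lay above the other vehicle samples, which were close together. Pdk4 was 1.71-fold lower with PTH, a log2 fold change of -0.77 (95% interval -1.07 to -0.48, edgeR adjusted p = 5.39e-04). Without vehicle 4 its log2 fold change was -0.67.

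Pdk1 (chr2:71873224-71903858, plus strand), the kinase raised by hypoxia, fell less. Its level was 41.5, 36.7, 36.6 and 47.7 CPM in vehicle samples 1 to 4 and 31.4, 26.8, 31.9 and 29.0 CPM in PTH samples 1 to 4. All PTH samples were below all vehicle samples, though the gap between the nearest samples was small beside the spread of the vehicle group. The log2 fold change was -0.45 (95% interval -0.66 to -0.24, edgeR adjusted p = 0.00250).

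Pdk3 (chrX:93764607-93832201, minus strand), a kinase known for its high specific activity, did not follow the other kinases. Its level was 46.8, 54.3, 51.3 and 55.03 CPM in vehicle samples 1 to 4 and 61.0, 52.1, 54.8 and 56.6 CPM in PTH samples 1 to 4. The groups overlapped. The log2 fold change was 0.11 with a 95% interval of -0.05 to 0.28 (edgeR adjusted p = 0.230), so a fall of the size seen for Pdk1 lay outside the interval.

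The make-up of the kinase transcripts differed between the groups. With each kinase's CPM divided by the length of its merged exons and expressed as a share of the sum over the 4 kinases, Pdk3 held 46.4 ± 1.96% with vehicle and 64.2 ± 1.47% with PTH (mean ± SD, n = 4). Its share ran from 43.9 to 48.4% in the vehicle samples and from 62.4 to 65.5% in the PTH samples. Pdk2 held 33.5 ± 2.86% with vehicle and 18.5 ± 0.738% with PTH. Both shares were well separated between the groups. Pdk4 went from 8.10 ± 0.913% to 6.07 ± 0.896%, with its highest PTH sample just below its lowest vehicle sample, and Pdk1 was at 11.98 ± 1.41% and 11.2 ± 0.529% with overlapping groups. These shares follow from the same counts as the tests above and were given no test of their own. With the length of the longest coding transcript of each gene in place of its merged exons, the share of Pdk3 ran from 40.8 to 45.3% with vehicle and from 59.6 to 62.6% with PTH.

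**Figure D2:**
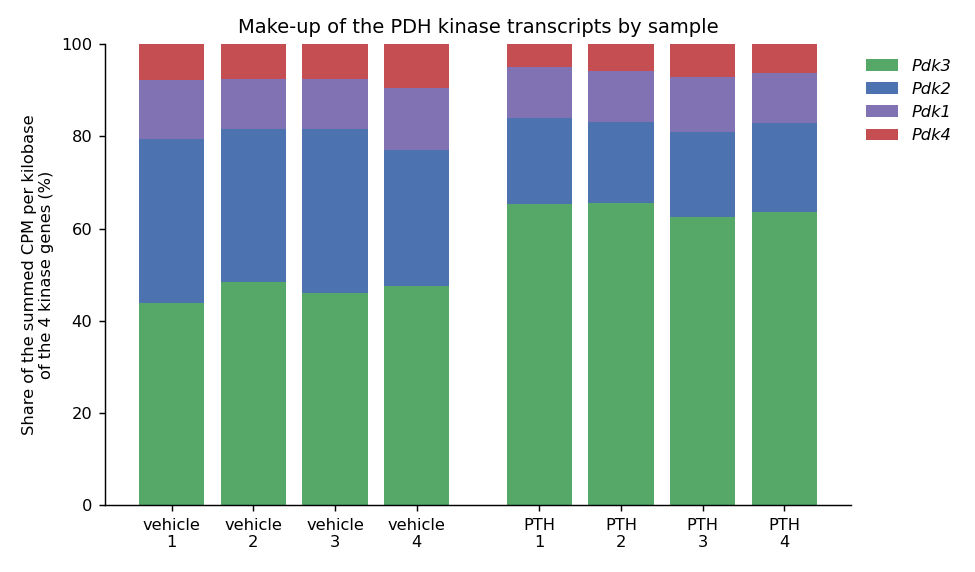
Share of each kinase in the summed level per kilobase of the 4 kinases, in percent, for the 4 vehicle and 4 PTH samples. The Pdk3 share is 43.9 to 48.4% in the vehicle samples and 62.4 to 65.5% in the PTH samples, and the Pdk2 share is 29.5 to 35.6% and 17.5 to 19.4%.

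The phosphatases, which reactivate the complex, did not move against the kinases. Pdp1 (chr4:11958184-11966452, minus strand), the calcium-sensitive phosphatase, was at 51.4, 51.9, 50.5 and 46.0 CPM in vehicle samples 1 to 4 and at 28.2, 26.0, 29.1 and 30.6 CPM in PTH samples 1 to 4. The groups stood wide apart. Pdp1 was 1.75-fold lower with PTH, a log2 fold change of -0.81 (95% interval -0.97 to -0.65, edgeR adjusted p = 2.37e-06).

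Pdp2 (chr8:104591451-104599026, plus strand), the calcium-insensitive phosphatase, had the lowest counts of the 10 genes, 110 to 253 per sample. It stood at 3.84, 4.96, 4.07 and 5.10 CPM in vehicle samples 1 to 4 and at 3.24, 3.31, 4.28 and 4.11 CPM in PTH samples 1 to 4, and the groups overlapped. The log2 fold change was -0.27 with a 95% interval of -0.63 to 0.10 (edgeR adjusted p = 0.215). That interval is the widest of the 10 and holds both no change and a fall of the size seen for Pdk1.

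Summed over its genes and per kilobase of merged exons, the kinase level was 43.5 ± 1.48 CPM per kilobase with vehicle and 34.1 ± 2.24 with PTH, and the phosphatase level was 11.9 ± 0.543 and 6.97 ± 0.503. Both sums were lower in the PTH samples, and the kinase sum per unit of phosphatase was higher, at 3.45 to 4.07 in the vehicle samples and 4.62 to 5.33 in the PTH samples. With coding transcript lengths it was 4.20 to 4.92 and 5.50 to 6.35. The ratio is a description of transcripts and was not tested.

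Within the complex, its core subunit and its α subunit differed. Dlat (chr9:50634633-50659780, minus strand), the acetyltransferase of the core, was at 45.9, 46.2, 46.1 and 46.0 CPM in vehicle samples 1 to 4, the tightest values of the 10 genes. In PTH samples 1 to 4 it was at 87.2, 65.5, 69.7 and 78.2 CPM. All PTH samples were above all vehicle samples. Dlat was 1.63-fold higher with PTH, a log2 fold change of 0.71 (95% interval 0.52 to 0.89, edgeR adjusted p = 3.09e-05). Among the 4 PTH samples the values of Dlat followed the order of library depth, as did those of Pdk2, Pdk3 and Pdha1. With all libraries thinned to the depth of the smallest the call for Dlat was kept. Thinning evens out the number of reads and cannot remove other differences between samples that go along with depth.

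Pdha1 (chrX:160122209-160138413, minus strand), the subunit that the kinases phosphorylate, was the most abundant of the 10 genes per length. It stood at 168.9, 174.8, 165.7 and 171.8 CPM in vehicle samples 1 to 4 and at 197.4, 166.3, 174.6 and 187.6 CPM in PTH samples 1 to 4, with overlapping groups. The log2 fold change was 0.09 with a 95% interval of -0.06 to 0.24 (edgeR adjusted p = 0.292). Map3k15 lies on the opposite strand and shares 603 exon bases with Pdha1, and it was counted at only 20 to 55 reads per sample against 5526 to 10118 for Pdha1.

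Counts set against Pdha1 in the same sample need no scaling between libraries. For every 100 counts of Pdha1, Dlat had 26.4 to 27.8 counts in the vehicle samples and 39.4 to 44.2 in the PTH samples. Pdk2 had 24.6 to 29.5 and 10.4 to 11.5, Pdp1 had 26.8 to 30.5 and 14.3 to 16.7, and Pdk4 had 6.70 to 8.75 and 3.22 to 4.92. Relative to Pdha1, the core thus stood higher and these regulators lower in every PTH sample, whereas Pdk3 overlapped at 27.7 to 32.0 and 30.2 to 31.4.

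Both carrier subunits rose with PTH. Mpc1 (chr17:8282904-8297661, plus strand) was at 24.6, 22.5, 25.3 and 24.1 CPM in vehicle samples 1 to 4 and at 29.2, 35.4, 39.8 and 29.4 CPM in PTH samples 1 to 4. The groups did not overlap, and PTH 2 and PTH 3 stood above the other PTH samples. Mpc1 was 1.39-fold higher, a log2 fold change of 0.47 (95% interval 0.25 to 0.69, edgeR adjusted p = 0.00248). With an offset for the length of the coding transcript, an alternative added after the data were seen, the log2 fold change of Mpc1 was 0.26 (edgeR adjusted p = 0.0155).

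Mpc2 (chr1:165460637-165481214, plus strand), the obligate partner of MPC1, was at 48.1, 37.1, 42.1 and 36.7 CPM in vehicle samples 1 to 4 and at 43.2, 76.7, 69.0 and 53.6 CPM in PTH samples 1 to 4. The groups overlapped by 1 sample, since PTH 1 lay below vehicle 1. Mpc2 was 1.48-fold higher, a log2 fold change of 0.56 (95% interval 0.22 to 0.91, edgeR adjusted p = 0.0112), whereas the exact permutation test gave p = 0.0571. With the offset for coding transcript length the log2 fold change of Mpc2 was 0.38 (edgeR adjusted p = 0.0252).

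Among the PTH samples Mpc2 ran against the order of depth, opposite to Dlat, from the highest value in the smallest library, PTH 2, to the lowest in the deepest, PTH 1. With counts thinned to the smallest library the log2 fold change was 0.48 for Mpc1 and 0.58 for Mpc2. Without PTH 1 that of Mpc2 was 0.69 (edgeR adjusted p = 5.80e-04), and without PTH 2 it was 0.44 (edgeR adjusted p = 0.0249). The call for Mpc2 thus held without either library. The ratio of Mpc2 to Mpc1 counts was 1.70 ± 0.182 with vehicle and 1.80 ± 0.284 with PTH, and the groups overlapped.

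**Figure D3:**
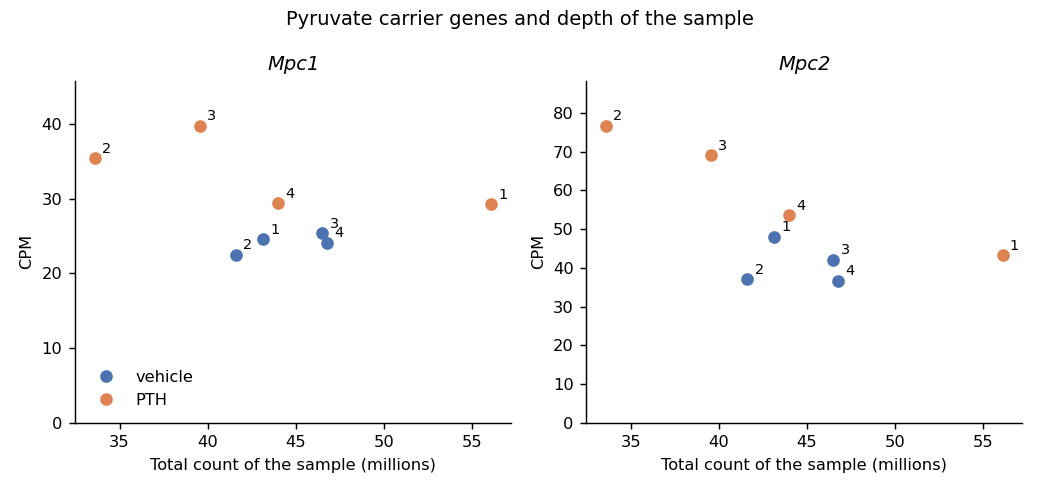
Level of Mpc1 and Mpc2 in CPM against the total count of each library, with 4 vehicle and 4 PTH samples as points. Among the PTH samples Mpc2 runs from 76.7 CPM in the smallest library to 43.2 CPM in the deepest, while the vehicle libraries span a narrower range of depth.

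Reads of Mpc1 can also fall on a copy. Its processed pseudogene Mpc1-ps (chr12:110858565-110858894) shares 261 bases with Mpc1 at 100% identity and held 824 to 1161 counts per sample, beside 979 to 1524 for Mpc1. The value of either gene alone is uncertain for this reason. Mpc1-ps went from 18.5 ± 0.472 to 24.4 ± 5.06 CPM, and its log2 fold change was 0.40 (edgeR adjusted p = 0.0207), and with the counts of Mpc1 and Mpc1-ps summed, an alternative also added after the data were seen, the log2 fold change was 0.44 (edgeR adjusted p = 0.00472). Another copy, Gm8219, shares 242 bases at 95.9% identity. On the opposite strand, 4930506C21Rik shares 480 exon bases with Mpc1 and had 13 to 42 counts, and the strand setting of the counting is not given in the sources used here.

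**Figure D4:**
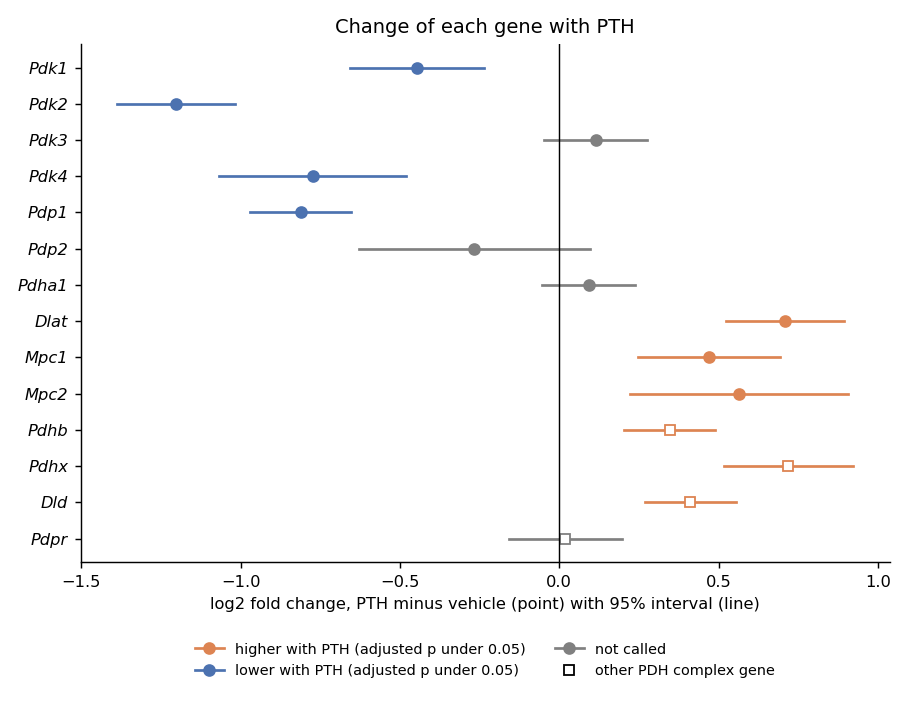
Log2 fold change of PTH against vehicle for the 10 genes, as points with 95% intervals from edgeR, and for Pdhb, Pdhx, Dld and Pdpr of the same complex, as open squares. The intervals of Pdk3, Pdp2, Pdha1 and Pdpr include 0, and those of Pdk1, Pdk2, Pdk4 and Pdp1 lie below it. Those of Dlat, Mpc1, Mpc2, Pdhb, Pdhx and Dld lie above it.

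Levels can be compared between genes only per length. In CPM per kilobase of merged exons, the vehicle order was Pdha1 (45.6 ± 1.05), Pdk3 (20.2 ± 1.46), Pdk2 (14.6 ± 0.882), Mpc1 (11.6 ± 0.585), Pdp1 (11.1 ± 0.594), Dlat (9.42 ± 0.0264), Mpc2 (5.58 ± 0.722), Pdk1 (5.22 ± 0.674), Pdk4 (3.53 ± 0.501) and Pdp2 (0.789 ± 0.111). The neighbours Mpc1 and Pdp1 overlapped, as did Mpc2 and Pdk1. With PTH the level of Dlat per kilobase was 15.4 ± 1.97 and that of Mpc1 16.1 ± 2.45, while Pdk2 was at 6.31 ± 0.608 and Pdp1 at 6.32 ± 0.429. Pdk2 and Pdp1 thus moved from above Dlat to below it, and Mpc2, Pdp1 and Pdk2 overlapped as neighbours in the PTH order. With coding transcript lengths Pdp1 and Dlat already overlapped in the vehicle samples, at 11.9 and 11.4 CPM per kilobase. The order depends on the length used: Mpc2 has 7344 bases of merged exons but 1025 in its longest coding transcript, and on that length it stood at 40.0 CPM per kilobase with vehicle, below only Pdha1 at 59.8.

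The counts of genes called in the pathway lists below stand beside the same shares of all genes tested, 23.3% higher and 22.5% lower. The other genes of the complex were taken from a list of 4. Pdhb, Pdhx and Dld rose, and Pdpr did not pass the test. Pdhx, the protein that binds the common lipoamide dehydrogenase to the core, went from 14.4 ± 1.32 to 23.6 ± 1.90 CPM (log2 fold change 0.72, edgeR adjusted p = 5.72e-05). Dld, that dehydrogenase, had a log2 fold change of 0.41 (edgeR adjusted p = 3.00e-04), and Pdhb, the β subunit of the decarboxylase, had 0.35 (edgeR adjusted p = 9.67e-04). Pdpr, the regulatory subunit of the PDP1 phosphatase, was at 34.7 CPM with vehicle and 35.1 with PTH (log2 fold change 0.02, edgeR adjusted p = 0.869). The median log2 fold change of the list was 0.38.

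Among 12 genes that supply the lipoyl and thiamine cofactors, 11 were tested, of which 1 rose, 6 fell and 4 did not pass the test, with a median log2 fold change of -0.44. Lipt1, the lipoyl transferase, fell from 3.24 to 1.11 CPM (log2 fold change -1.55, edgeR adjusted p = 6.39e-05). Bola3, an iron-sulphur cluster factor needed for lipoate synthesis, rose from 14.3 to 21.7 CPM (log2 fold change 0.60, edgeR adjusted p = 0.00275). Of 7 genes of the related dehydrogenases for branched-chain acids and 2-oxoglutarate, Dlst rose, Dbt and Bckdk fell and 4 did not pass. Dbt, the core of the branched-chain enzyme, had a log2 fold change of -0.39 (edgeR adjusted p = 9.87e-04). Dlst, the core of the 2-oxoglutarate enzyme, had 0.20 (edgeR adjusted p = 0.0449), and its groups overlapped. Bckdk was named after its values were seen.

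Slc16a1 and Gpt2, on either side of pyruvate entry, changed by more than any of the 10 genes. Of 10 tested genes for cytosolic pyruvate and lactate, 3 rose (Slc16a1, Ldha and Pkm) and 1 fell (Slc16a7), with a median log2 fold change of 0.21, and Ldha and Pkm were named after their values were seen. Slc16a1, the monocarboxylate transporter MCT1 that carries lactate and pyruvate across the plasma membrane, went from 33.6 to 156 CPM, and its log2 fold change was 2.22 (edgeR adjusted p = 1.78e-09). Slc16a7, the transporter MCT2, had -0.32 (edgeR adjusted p = 0.0498) with overlapping groups. Of 5 genes for other mitochondrial uses of pyruvate and acetyl-CoA, Gpt2 rose, Me2 and Cs fell and 2 did not pass. Gpt2, which interconverts pyruvate and alanine in mitochondria, went from 30.0 to 127 CPM, and its log2 fold change was 2.08 (edgeR adjusted p = 1.34e-09). Me2, a malic enzyme that makes pyruvate in the matrix, had -0.64 (edgeR adjusted p = 0.00520), and Cs was named after its values were seen.

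Fatty acids compete with pyruvate for supply of acetyl-CoA. Of 19 genes of β-oxidation, 4 rose, 6 fell and 9 did not pass the test, with a median log2 fold change of -0.10. Over all genes, 23.3% were called higher and 22.5% lower. Cpt2, the carnitine palmitoyltransferase of the inner membrane, went from 34.0 to 23.9 CPM (log2 fold change -0.51, edgeR adjusted p = 2.60e-04). Cpt1b, the muscle form of the outer membrane enzyme, went from 0.353 to 1.01 CPM (log2 fold change 1.51, edgeR adjusted p = 0.0213), with overlapping groups at a locus that holds 2 symbols. The count that rose was 2 in place of 4 without vehicle 2, vehicle 3 or vehicle 4.

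Of 15 textbook regulators of PDK genes, 7 rose, 6 fell and 2 did not pass, with a median log2 fold change of -0.01. Cebpb went from 38.9 to 391 CPM (log2 fold change 3.33, edgeR adjusted p = 2.83e-11), and Pparg went from 16.0 to 5.67 CPM (log2 fold change -1.50, edgeR adjusted p = 3.66e-07). Known activators of Pdk4 are among both those that rose and those that fell, and the part of any of them in the kinase values was not tested. The count that fell was 3 in place of 6 without vehicle 2 or vehicle 3.

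Among the genes named from these lists, 5 calls were lost when single libraries were left out. Dlst lost its call without vehicle 1, 2 or 3 or PTH 1, 3 or 4 (edgeR adjusted p up to 0.169). Slc16a7 lost it without any vehicle sample or PTH 2 or 4 (up to 0.152), and Cs without vehicle 2, 3 or 4 or PTH 2, 3 or 4 (up to 0.106). Pkm lost it without vehicle 1, 2 or 3 or PTH 1 or 4 (up to 0.114), and Cpt1b without vehicle 2, 3 or 4 or PTH 3 (up to 0.0943). All 5 also lost the call in some setting that kept every sample. In DESeq2 the adjusted p was 0.0663 for Dlst and 0.0584 for Slc16a7, and with the length offset the edgeR adjusted p of Cs was 0.176.

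**Figure D5:**
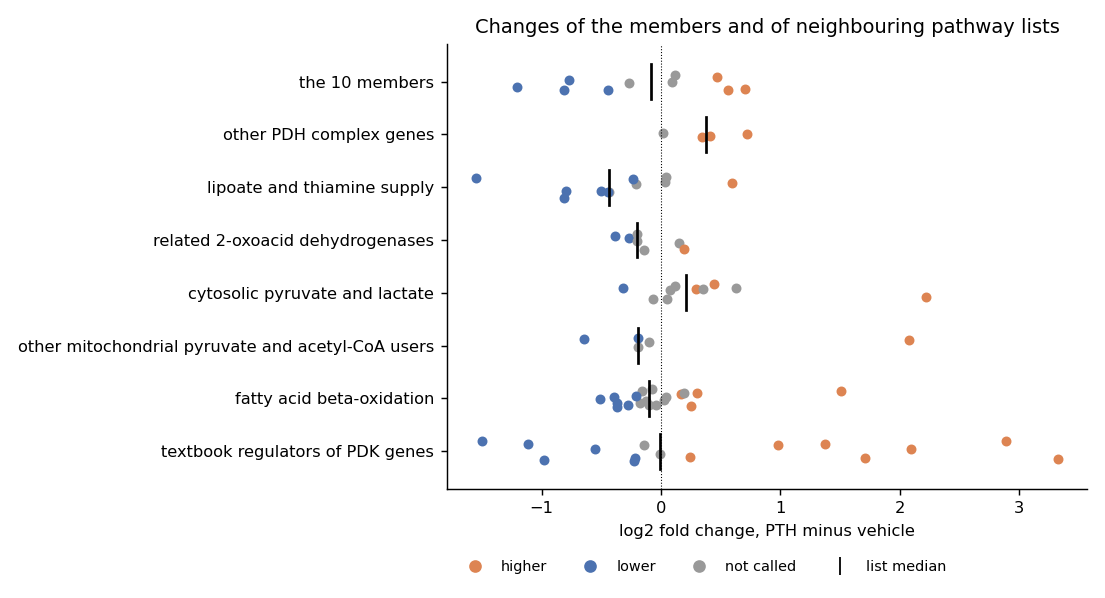
Log2 fold change of PTH against vehicle for the 10 genes and for every tested gene of the 7 pathway lists, as points by list, with called genes marked. The medians of the pathway lists run from -0.44 for lipoate and thiamine supply to 0.38 for the other genes of the complex, and Cebpb lies farthest above 0 at 3.33.

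The genes most like Pdk2 across the 8 samples were Htr1b, Sesn1 and Arsj. Likeness was the root mean square difference of log2(CPM + 0.1), each gene centred on its vehicle mean, taken over genes whose mean level was 1 CPM or more. It was 0.0474 for Htr1b, a serotonin receptor, 0.0507 for Sesn1, a stress-induced regulator of mTORC1, and 0.0643 for Arsj, a sulphatase. Their log2 fold changes were -1.21, -1.16 and -1.22. The measure describes 8 values of each gene and says nothing of shared control.

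Markers of other cells were summed to see what else the cultures held. In bulk RNA fewer cells of a type and less RNA per cell cannot be told apart. The counts of markers called are to be read against the shares of all genes tested, 23.3% higher and 22.5% lower. The 9 osteoblast markers summed to 43805 to 50639 CPM with vehicle and 43977 to 60805 CPM with PTH, nearly all of it from Col1a1, and 0 rose and 3 fell. The osteoblast transcription factors Sp7 and Runx2 fell, Sp7 from 103 to 30.1 CPM (log2 fold change -1.78, edgeR adjusted p = 4.45e-06) and Runx2 with a log2 fold change of -0.33 (edgeR adjusted p = 0.00362), as did the osteocyte marker Dmp1 (log2 fold change -1.12, edgeR adjusted p = 8.06e-04). The other 6, Alpl, Col1a1, Bglap, Ibsp, Spp1 and Phex, did not pass the test. Their log2 fold changes ran from -0.43 for Phex to 0.28 for Alpl. The 10 macrophage markers summed to 1041 to 1688 CPM with vehicle and 1632 to 2113 CPM with PTH. Most of that came from Lyz2, with a mean of 914 CPM with vehicle and 1417 CPM with PTH. Of the 10 markers, 3 rose, or 2 to 10 with 1 library left out, all 10 without vehicle 4. The 8 adipocyte markers summed to only 34.1 to 50.8 CPM and 40.9 to 63.2 CPM, although the labels name adipogenic differentiation, and 1 of 7 tested rose, or 0 to 3 with 1 library left out. The 8 skeletal muscle markers summed to 19.2 to 25.5 CPM with vehicle and 15.5 to 18.6 CPM with PTH, and 2 of the 4 that passed the filter fell, or 1 without vehicle 2, vehicle 3 or PTH 3. The 5 endothelial markers summed to 6.15 to 6.97 CPM and 5.66 to 6.97 CPM with Emcn at 0 in all samples, and the 5 chondrocyte markers to 409 to 463 CPM and 479 to 606 CPM, of which 2 of 4 tested rose. The muscle sums were lower and the chondrocyte sums higher in every PTH sample, and the macrophage sums overlapped between the groups. The part of these cells, and of the falls in Sp7, Runx2 and Dmp1, in the values of the 10 genes was not tested.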

How the data were processed

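RNA was extracted with the RNeasy kit, and the authors had poly(A) libraries sequenced as paired reads. HISAT2 served for alignment to GRCm38, SAMtools for sorting and StringTie2 for transcript assembly. What the authors deposited are counts per gene, which StringTie2's companion script estimates from transcript coverage and which were not normalized. The read length given to that script, the annotation version and the strand setting are not given in the sources used here, and counts halved for another read length were tried as an alternative. Groups were taken from the sample labels. Of the 47706 entries, 46518 could be found in GENCODE M21, the source of positions and lengths.

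From the deposited counts, PTH was compared with vehicle over all genes by edgeR 4.0.16 (TMM normalization, two-sided quasi-likelihood F-test, filterByExpr at its defaults of 10 counts and 15 in total) in R 4.3.3 with limma 3.58.1, and p-values were adjusted over the 16736 genes tested. CPM values use TMM library sizes. For single genes, two-sided exact permutation tests used log2(CPM + 0.1) over 70 assignments. DESeq2 1.42.0, which the authors used, was an alternative, as were its size factors, no filter, the sample number as a replicate block, leaving out each sample, counts summed by symbol, thinned counts and a length offset. Another 2, a coding length offset and Mpc1 summed with its pseudogene, were chosen after seeing the data. Similar sequences were found with blastn 2.17.0 (at least 150 bases at 95% identity). Tables and plots were made in Python 3.11.15 with pandas 2.3.3, NumPy 2.4.6, SciPy 1.17.1 and matplotlib 3.10.9. The edgeR step was tested on simulated data.

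The members, the gene lists and the tests were chosen with earlier results of these data known. The text names all members and the other genes of the complex, the genes with the largest rise and fall among those called in each other list, the 3 genes most like the member with the largest change, and Tnfsf11, with marker genes only where the sum of their list is given. Genes named outside this rule are said to be. Samples with the same number did not deviate together, so the numbers were not used as pairs in the main comparison. Of the 10 genes, 9 had a promoter window in the RefSeq table, and promoter sequence of Pdp1 was not analysed here.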

Additional observations from a re-analysis of the deposited data

Results flagged for a closer look

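In 60 groups of 4 samples, made up of 20 groups of the pyruvate entry genes and 40 of other genes named in the text, a sample was marked when its distance from the nearest other sample took up more of the range of its group than Dixon's 95% critical value. This marked 6 groups, 1 of them among the pyruvate entry genes, and chance alone marks about 5% of such groups.

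Pdk4 was at 15.04 CPM in vehicle 4, while the other vehicle samples lay between 11.3 and 11.7 CPM. Dld was at 81.2 CPM in PTH 2, below the other PTH samples at 92.5 to 94.4 CPM, and PTH 2 is the smallest library. Dbt was at 23.2 CPM in PTH 3, with the other PTH samples at 20.0 to 20.4 CPM. Cpt1b was at 0.580 CPM in vehicle 1, with the others at 0.262 to 0.298 CPM. Sesn1 was at 68.6 CPM in vehicle 4, below the others at 71.8 to 71.9 CPM. Tnfsf11 was at 157 CPM in PTH 1, above the others at 115 to 120 CPM.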

How the results depend on the processing

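Each of the 10 genes kept its direction and its side of the threshold in all 18 alternative settings, 8 of which left out 1 sample each. Over the samples left out, the log2 fold change ran from -1.24 to -1.13 for Pdk2, from -0.87 to -0.67 for Pdk4 and from 0.44 to 0.69 for Mpc2. With the sample number as a replicate block, that of Pdk2 was -1.21, Mpc2 had an edgeR adjusted p of 0.0244, and 3571 genes were called higher and 3432 lower over the table. Same-numbered samples correlated between -0.04 and 0.03 after group means were removed, and 1 of the 4 numbers matched best with its own, so the numbers do not pair the samples. The coding transcript length in place of merged exons moved 16 of 20 levels per kilobase by more than 1 SD, and unscaled libraries moved 2. Of 48 other named or called genes, 12 lost the call in some setting, and Pdpr, which was not called, changed sign in 4, at -0.015 without the filter on low counts and between -0.024 and 0.071 with single samples left out. Low counts limit the precision of Pdp2, Lipt1 and Cpt1b. The share of reads of Mpc1 and Mpc1-ps that belongs to each cannot be told apart from these counts.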
